A study of Mus musculus with 4 samples.

Results

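The genes described here store, carry and convert vitamin A in liver: Lrat, Rbp4, Ttr, Aldh1a1, Aldh1a2, Cyp26a1, Rdh11 and Bco1. They were taken by name, as every probe set of an Affymetrix mouse expression array whose single gene symbol in the platform annotation is one of these 8. That gave 13 of 45101 probe sets, and 8 of 18193 genes with a probe set of their own. Where a gene had several probe sets, the one with the highest mean log2 signal over the 4 arrays stood for it. All 8 genes lie on autosomes (chromosome 3, 8, 9, 12, 18 or 19).

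RNA came from liver slices of 4 male mice aged 9 months, hybridised to 1 array each, in a series on nonalcoholic fatty liver disease. The 2 AB6F1 males were born to an AJ mother and sired by a B6 male, and the 2 B6AF1 males to a B6 mother and sired by an AJ male. All 4 mice were fed chow in a pathogen-free facility and received no treatment. Mice of both crosses carry 1 AJ and 1 B6 copy of each autosomal gene. The crosses differ in which parent gave which copy, in the X and Y chromosomes, in the mitochondria and in the strain of the mother that bore them. The question the labels imply is which liver transcripts differ with the direction of the cross, and every difference below is AB6F1 minus B6AF1.

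The liver holds most of the body's vitamin A. Hepatocytes take up retinyl esters that come from the diet, release retinol bound to retinol-binding protein and transthyretin into the blood, and pass the rest to hepatic stellate cells, which store it as esters in lipid droplets. Retinol is oxidised to retinaldehyde and then to retinoic acid, the ligand of nuclear retinoic acid receptors, which bind direct repeats of a hexamer in their target promoters, and retinoic acid in turn is cleared by CYP26 enzymes.

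The promoters below are shown because retinoic acid receptors act on such windows. None is of a gene that passed the test of the cross. Shown are those of Cyp26a1, which retinoic acid induces, and Rarb, a receptor gene that it also induces. The others are those of Lrat, with the largest difference among the tested members, and Bco1. All are RefSeq windows of build GRCm38.p6, from 250 bases before to 50 bases after a gene start, written 5′ to 3′ on the gene's strand. Capitals mark the paired hexamers of a direct repeat.
Cyp26a1, chr19:37697558-37697857, plus strand: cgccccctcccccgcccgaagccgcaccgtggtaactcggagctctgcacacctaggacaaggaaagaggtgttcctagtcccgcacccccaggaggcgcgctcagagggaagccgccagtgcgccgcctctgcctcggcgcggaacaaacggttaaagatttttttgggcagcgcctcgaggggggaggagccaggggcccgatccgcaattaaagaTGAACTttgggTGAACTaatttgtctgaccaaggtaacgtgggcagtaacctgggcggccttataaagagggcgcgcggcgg
Rarb, chr14:16575427-16575726, minus strand: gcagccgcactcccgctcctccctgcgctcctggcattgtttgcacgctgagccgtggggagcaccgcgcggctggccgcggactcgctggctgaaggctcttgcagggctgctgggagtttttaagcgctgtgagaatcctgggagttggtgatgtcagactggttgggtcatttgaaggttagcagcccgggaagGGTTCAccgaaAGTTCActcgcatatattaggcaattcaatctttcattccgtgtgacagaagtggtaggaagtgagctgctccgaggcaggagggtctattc
Lrat, chr3:82903925-82904224, minus strand: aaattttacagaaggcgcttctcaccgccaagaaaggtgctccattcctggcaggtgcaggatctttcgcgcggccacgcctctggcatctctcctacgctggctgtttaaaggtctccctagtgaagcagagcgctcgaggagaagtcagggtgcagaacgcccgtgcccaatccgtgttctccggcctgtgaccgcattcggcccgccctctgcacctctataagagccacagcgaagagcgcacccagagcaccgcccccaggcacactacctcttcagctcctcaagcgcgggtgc
Bco1, chr8:117095615-117095914, plus strand: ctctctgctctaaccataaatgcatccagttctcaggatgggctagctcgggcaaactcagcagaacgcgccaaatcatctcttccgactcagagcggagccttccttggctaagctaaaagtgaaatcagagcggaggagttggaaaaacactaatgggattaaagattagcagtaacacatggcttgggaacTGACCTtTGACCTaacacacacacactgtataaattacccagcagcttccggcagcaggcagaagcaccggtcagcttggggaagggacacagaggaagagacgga

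The search took any of 4 hexamers (AGGTCA as the consensus, AGTTCA with a changed base, GGGTCA with another, and GGTTCA with both) followed by any of the 4 on the same strand, with both strands read. With a spacer of 5 bases, as in the classical retinoic acid response element, 32 of 32851 windows in the table (0.0974%) had a match. Among 10 windows of the 7 members in the table, 1 did: Cyp26a1, at bases 219 to 235 of the window, where the opposite strand reads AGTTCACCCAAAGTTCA. Rarb was the only other pathway gene with one among 89 windows of 66 further genes, reading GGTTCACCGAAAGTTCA at bases 198 to 214. A spacer of 2 bases was found in 0.268% of all windows and in none of the members'. The Bco1 repeat has a spacer of 1 base, a spacing that PPAR and RXR pairs recognise and that was added to the search after the Bco1 sequence had been seen. It lies at bases 195 to 207, reads AGGTCAAAGGTCA on the opposite strand, and this spacing was found in 0.222% of all windows. Such matches describe the letters of the window only. The windows of Lrat, Rbp4, Aldh1a1, Aldh1a2 and Rdh11 held none of these letters.

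No member passed the test of the cross. The values are linear MAS5 signals, scaled on each array to one overall mean, and the test is limma on log2 signal over 11748 genes (p adjusted by Benjamini-Hochberg, called under 0.05). A gene entered it when its mean log2 signal reached that of the median probe set, which corresponds to a signal of 60.9. Over all genes 25 were called (0.213%), and 0 of the 7 tested members were, with adjusted p from limma between 0.360 and 0.986. At an unadjusted p under 0.05 there was 1 member, Lrat, which was higher in AB6F1, against 9.72% of all genes in either direction and 5.84% higher. In 3 of the 7 members the 2 AB6F1 arrays were separate from the 2 B6AF1 arrays, as for 41.2% of all genes. AB6F1 was above in 1 of the 3 (22.5% of all genes) and below in 2 (18.7%). The median difference of the 7 was -0.022 on the log2 scale, with 2 higher and 5 lower. Over all tested genes the median was 0.024 and 53.5% were higher. With 2 mice a cross, an exact two-sided permutation test of a single gene cannot go below p = 0.333.

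**Figure D1:**
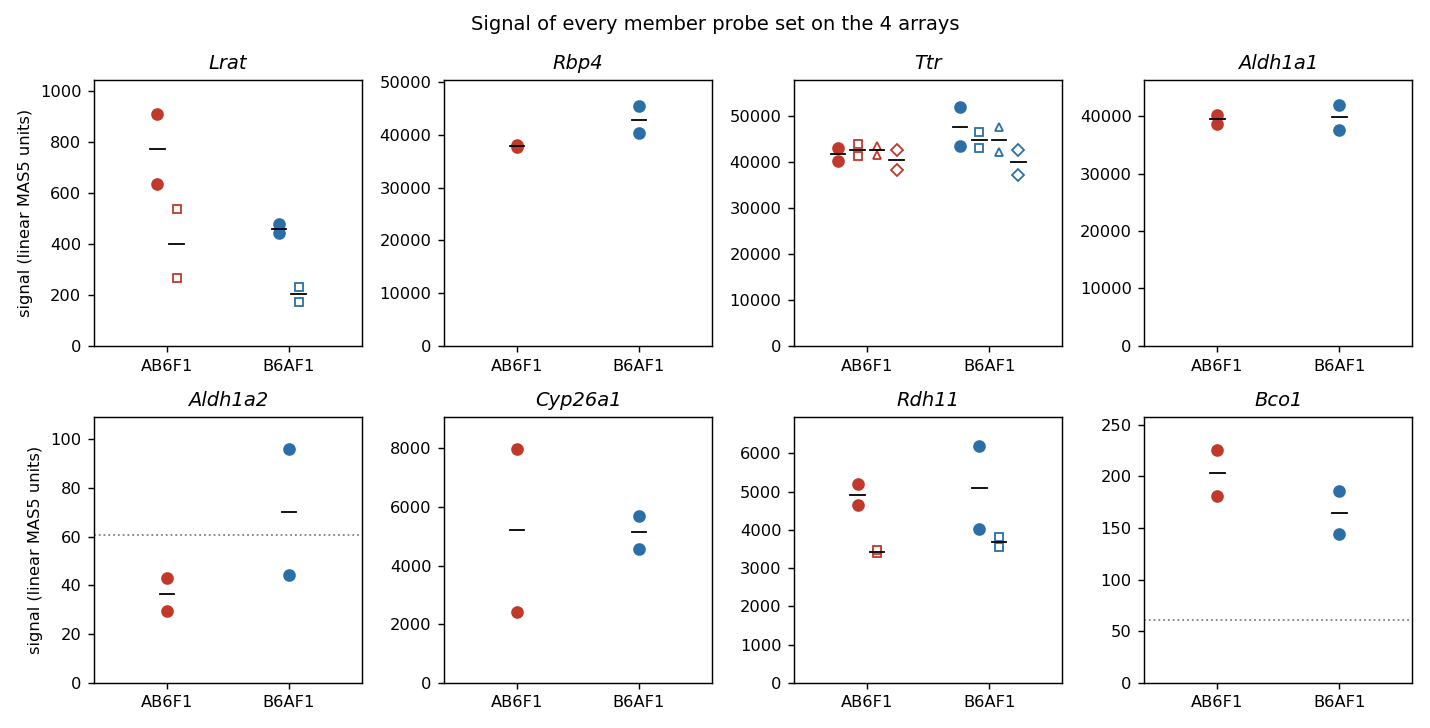
Signal (linear MAS5 units, axes from 0) of all 13 probe sets of the 8 genes, with a point per array and a black bar at the mean of the 2 arrays of a cross. AB6F1 is in red and B6AF1 in blue, filled points are the probe set that stands for the gene, open points are its other probe sets, and the dotted line in the Aldh1a2 and Bco1 panels is the filter signal of 60.9. The AB6F1 arrays lie above the B6AF1 arrays for both Lrat probe sets, and the AB6F1 points of Cyp26a1 lie on either side of both B6AF1 points.

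Storage is represented by Lrat, lecithin-retinol acyltransferase, the enzyme that turns retinol into retinyl esters and the main such enzyme of liver. Its brighter probe set read 637.3 and 912.2 in AB6F1, against 441.2 and 477.3 in B6AF1. Both AB6F1 arrays were above both B6AF1 arrays. The means were 775 ± 194 in AB6F1 and 459 ± 25.5 in B6AF1 (SD, n = 2 each). The log2 difference was 0.73 ± 0.21 (SE), or 1.66-fold with a 95% interval of 1.18 to 2.35, and it did not pass limma over all genes (adjusted p = 0.360; unadjusted p = 0.0105).

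The second, dimmer Lrat probe set read 264.6 and 537.4 in AB6F1, against 231.5 and 172.2 in B6AF1. Here too the AB6F1 arrays were both above the B6AF1 arrays, although AB6F1 replicate 1 was only a little above B6AF1 replicate 1. Its log2 difference was 0.92 ± 0.36 (SE; limma adjusted p = 0.509 with all probe sets tested separately). The platform annotation ties this one to the RefSeq transcript and the brighter one to an expressed sequence tag, whose place in the Lrat transcript was not checked here. On both probe sets AB6F1 replicate 2 was the highest array. Without that array the Lrat difference was 0.47 (log2), and without AB6F1 replicate 1 it was 0.99.

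Lrat is made by stellate cells, so their other markers were set beside it. Of 22 tested stellate cell markers, 14 were higher and 8 lower in AB6F1, and the median of their log2 differences was 0.12. At an unadjusted p under 0.05 there were 8 (36.4%), all higher, against 9.72% of all genes in either direction and 5.84% higher. Col3a1 and Col1a2, fibrillar collagens of activated stellate cells and other fibroblasts, rose, and the other 20 did not pass. Col3a1 read 3772.5 and 4531.7 in AB6F1, against 1306.2 and 1066.4 in B6AF1 (log2 difference 1.81 ± 0.16, SE; limma adjusted p = 0.00931). Col1a2 was at 1.37 ± 0.17 (limma adjusted p = 0.0402). Both calls were lost by eBayes without the trend (adjusted p = 0.352 for Col3a1 and 0.324 for Col1a2), without B6AF1 replicate 1 (0.159 and 0.340) and without B6AF1 replicate 2 (0.227 and 0.512), and that of Col1a2 also by quantile normalization (0.0525). Their second probe sets, at 0.98 and 2.15, did not pass when probe sets were tested separately; a further probe set of Col1a2 was below the filter and no difference is given for it. Lum, the matrix proteoglycan lumican, was at 0.85 ± 0.18 (limma adjusted p = 0.209). Col1a1, a chain of the same collagen as Col1a2, read 308.1 and 467.4 in AB6F1, against 96.6 and 16.7 in B6AF1 (limma adjusted p = 0.272); B6AF1 replicate 2 was below the filter signal, so its log2 difference of 3.24 ± 0.78 (SE) is of uncertain size, and on its second probe set the crosses overlapped. The muscle actin Acta2, which activated stellate cells make, was at 0.77 ± 0.22 and the growth factor receptor Pdgfrb at 0.54 ± 0.22, with limma adjusted p of 0.354 and 0.498.

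The markers of the quiescent stellate cell named here did not share one direction. Apart from Col3a1 and Col1a2, the stellate cell markers named were picked with their values known. Most of the 8 lower ones are not given. Cygb, the globin cytoglobin, was at 0.76 ± 0.23 (SE; limma adjusted p = 0.384), with AB6F1 above B6AF1. Reln, reelin, was at 0.17 ± 0.12, the intermediate filament gene Des at -0.22 ± 0.72 and the transcription factor gene Hand2 at -0.33 ± 0.31 on the log2 scale (SE), with limma adjusted p from 0.689 to 0.943. The 22 markers summed to 27188.7 and 32582.2 in AB6F1, against 24459.8 and 23853.8 in B6AF1. None was at 0, although Des and Gfap were dim, at 41.3 to 192 and 59.5 to 131.8. Bright genes weigh most in such a sum, and Col3a1 alone averaged 4152 in AB6F1 and 1186 in B6AF1. The part of these markers in the Lrat difference was not tested. In whole liver, more cells of a type and more RNA per cell cannot be told apart.

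**Figure D2:**
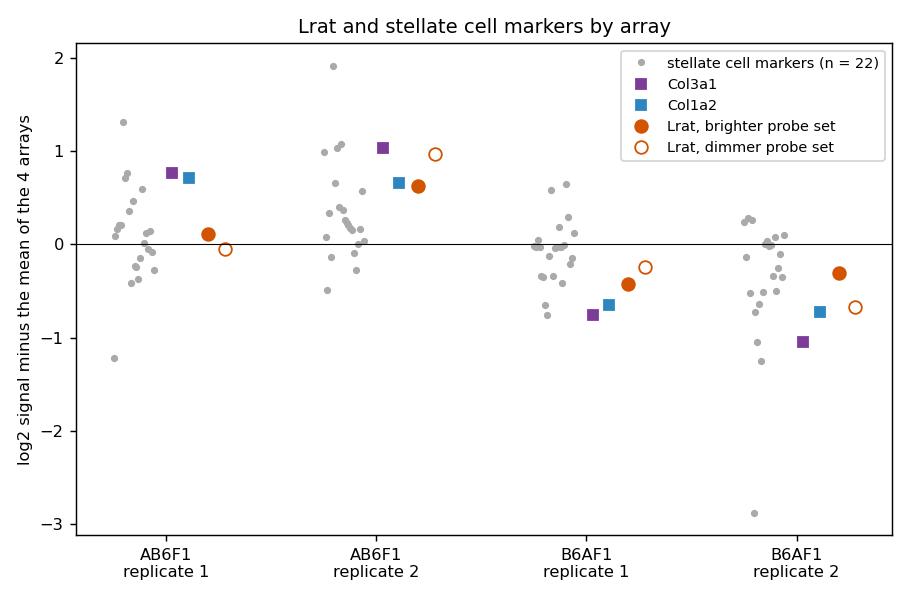
Log2 signal of each gene on each array, minus its own mean over the 4 arrays. Grey points are the 22 stellate cell markers, squares are Col3a1 and Col1a2 again, and circles are the brighter (filled) and dimmer (open) probe set of Lrat. Lrat is highest on AB6F1 replicate 2 and, like the collagens, below its mean on both B6AF1 arrays.

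The genes whose profile over the 4 arrays lay nearest to that of Lrat, by Euclidean distance between centred log2 signals, were Olfr70 (0.0485), Fam241b (0.0611), Timp3 (0.0736), Mcm5 (0.0751) and AA619741 (0.0999). None of these 5 is in a list used here. With 4 arrays and 11748 genes this is a description of the profiles.

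Transport out of the hepatocyte is represented by Rbp4, the plasma carrier of retinol, and Ttr, transthyretin, which binds the carrier and keeps it from being lost through the kidney. Rbp4 read 38176.4 and 37712.7 in AB6F1, against 40373.3 and 45460.5 in B6AF1. Both AB6F1 arrays were below the B6AF1 arrays, but closer to B6AF1 replicate 1 than the B6AF1 arrays were to each other. The means were 37945 ± 328 in AB6F1 and 42917 ± 3597 in B6AF1 (SD, n = 2 each). The log2 difference was -0.18 ± 0.12 (SE; limma adjusted p = 0.674), with a 95% interval of the fold from 0.728 to 1.08.

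Ttr has 4 probe sets, and they do not share a direction. The one that stands for the gene, of suffix _x_at, read 43198.9 and 40377 in AB6F1, against 43451.4 and 51925.1 in B6AF1. The crosses are separated there by a narrow gap, and the log2 difference was -0.19 ± 0.13 (SE; limma adjusted p = 0.693). The other 3 overlapped between the crosses, with log2 differences of -0.070, -0.075 and 0.019. The suffix _x_at marks probe sets with probes that can bind other transcripts, and the overlapping probe set at -0.070 carries it too.

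Rbp4 and Ttr are products of hepatocytes, whose markers lay slightly on the same side. Of 15 tested hepatocyte markers 14 were lower in AB6F1, at a median of -0.10 on the log2 scale, while 53.5% of all genes were higher. None passed. Limma's unadjusted p was under 0.05 for 1 of them, Cps1 (6.67%), against 9.72% of all genes. The lowest of the 15 was Tat, at -0.60. It read 9910.8 and 19077.5 in AB6F1, against 21430.8 and 20151.1 in B6AF1. Albumin (Alb), the main secreted protein of hepatocytes, read 40787.9 and 38514.3 in AB6F1, against 40357.2 and 48624.7 in B6AF1. Its log2 difference was -0.16 ± 0.13 (SE; limma adjusted p = 0.738). As with Rbp4 and Ttr, B6AF1 replicate 2 was the highest array. The summed signal of the 15 markers came to 524064 and 482328 in AB6F1, against 513235 and 582466 in B6AF1. Their part in the values of Rbp4 and Ttr was not tested. Both probe sets are near the top of the array, with 0.113% of probe sets brighter for Rbp4 and 0.0599% for Ttr.

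Rdh11, a microsomal enzyme that reduces retinaldehyde to retinol, did not differ beyond the spread of the mice. Its brighter probe set read 5194.5 and 4641.3 in AB6F1, against 6181.5 and 4021.1 in B6AF1, so that the AB6F1 arrays lay between the B6AF1 arrays. The log2 difference was -0.022 ± 0.20 (SE; limma adjusted p = 0.982), with a 95% interval of the fold from 0.705 to 1.38. Its second probe set read 3392.4 and 3462.8 in AB6F1, against 3815.7 and 3555.1 in B6AF1. There the AB6F1 arrays were both lower, at -0.10 ± 0.12.

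Bco1, the enzyme that cleaves beta-carotene into retinaldehyde, read 226 and 180.9 in AB6F1, against 185.4 and 144.1 in B6AF1. AB6F1 replicate 2 and B6AF1 replicate 1 were close, and the crosses overlapped. The log2 difference was 0.31 ± 0.29 (SE; limma adjusted p = 0.772). The interval of the fold is wide, from 0.762 to 2.01.

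Oxidation of retinaldehyde to retinoic acid is represented by Aldh1a1 and Aldh1a2. Aldh1a1, the retinaldehyde dehydrogenase of adult hepatocytes, read 40261.1 and 38596.7 in AB6F1, against 37656.1 and 41871.9 in B6AF1. The AB6F1 arrays lay between the B6AF1 arrays. The log2 difference was -0.011 ± 0.12 (SE; limma adjusted p = 0.986), and the 95% interval of the fold ran from 0.817 to 1.21. Aldh1a2, the main retinoic acid-forming enzyme of the embryo, read 42.9 and 29.7 in AB6F1, against 44.1 and 96 in B6AF1. Only B6AF1 replicate 2 was above the filter signal of 60.9, so that Aldh1a2 was not tested and no fold is given.

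Cyp26a1, the cytochrome P450 that hydroxylates retinoic acid, had the widest spread of the members. It read 2428.4 and 7972.9 in AB6F1, against 5697.9 and 4567.9 in B6AF1. AB6F1 replicate 1 was the lowest and AB6F1 replicate 2 the highest of the 4 arrays, with both B6AF1 mice between them. The means were 5201 ± 3921 in AB6F1 and 5133 ± 799 in B6AF1 (SD, n = 2 each), and the log2 difference was -0.21 ± 0.48 (SE; limma adjusted p = 0.910). The 95% interval of the fold, 0.392 to 1.90, is the widest among the 7 tested members.

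The AB6F1 mice differed 3.28-fold from each other in Cyp26a1, or 1.72 on the log2 scale, against a median gap of 0.24 over all tested genes. Only 1.49% of tested genes had a wider gap between these arrays. In B6AF1 the gap was 0.32 (log2), and 32.7% of genes had a wider one. A single array sets the sign: the log2 difference was 0.64 without AB6F1 replicate 1 (limma adjusted p = 0.173) and -1.07 without AB6F1 replicate 2 (limma adjusted p = 0.0158). In the other 6 tested members the gap between the AB6F1 arrays ran from 0.018 (log2) for Rbp4 to 0.52 for Lrat.

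**Figure D3:**
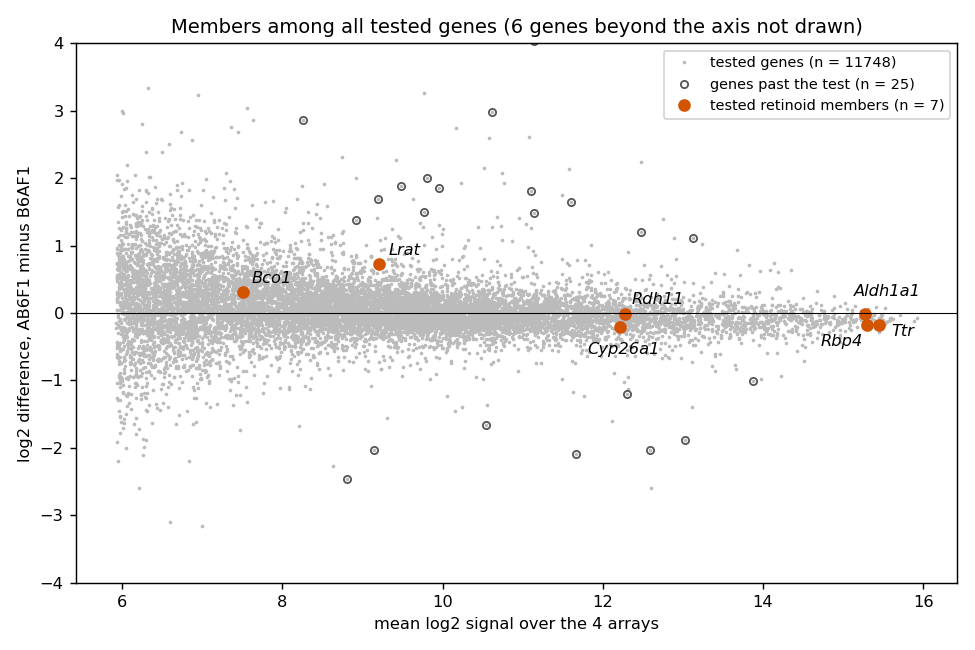
Log2 difference (AB6F1 minus B6AF1) of each tested gene against its mean log2 signal over the 4 arrays. Grey points are the 11748 tested genes, open circles the genes past the test, and orange points the 7 tested members. Rbp4, Ttr and Aldh1a1 lie at the bright end near 0, and Lrat lies highest of the 7, at 0.73.

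The wider retinoid pathway was described with lists of 90 further gene symbols, of which 75 had a probe set and 58 were tested. None was called by limma, against 0.213% of all genes. At an unadjusted p under 0.05 there were 10 (17.2% of the 58), 5 higher and 5 lower in AB6F1, against 9.72% of all genes. The median difference of the 58 was -0.045 on the log2 scale, with 26 higher and 32 lower, beside 0.024 over all tested genes.

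Among genes of retinoic acid signalling, 3 of the 9 tested targets had an unadjusted p under 0.05, all higher, against 9.72% of all genes in either direction and 5.84% higher, and none was called. The list as a whole had 4 higher and 5 lower, with a median of -0.042 on the log2 scale. Cyp26a1, which retinoic acid also induces, was counted with the members and not in this list, and was at -0.21. Rarb, the retinoic acid receptor beta, whose promoter is shown above, read 361.7 and 359.1 in AB6F1, against 212.5 and 189.1 in B6AF1. The crosses did not overlap, and the log2 difference was 0.85 ± 0.22 (SE; limma adjusted p = 0.311). Cyp26b1, a relative of Cyp26a1 that also hydroxylates retinoic acid, read 196.7 and 433.7 in AB6F1, against 132.3 and 49.8 in B6AF1. B6AF1 replicate 2 was below the filter signal, so the log2 difference of 1.85 ± 0.57 (SE; limma adjusted p = 0.384) is of uncertain size. As for Cyp26a1 and Lrat, AB6F1 replicate 2 was the highest array.

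The remaining target was Tgm2, transglutaminase 2, a cross-linking enzyme. It read 17578.9 and 7035 in AB6F1, against 4134.8 and 4339.7 in B6AF1. It was at 1.39 ± 0.37 (log2, SE; limma adjusted p = 0.333). Its highest array was AB6F1 replicate 1, the one with the lowest Cyp26a1, where Cyp26b1 was highest on AB6F1 replicate 2 and the AB6F1 arrays of Rarb were nearly equal. Dhrs3, a retinaldehyde reductase that retinoic acid also induces, was at -0.17 ± 0.11 (limma adjusted p = 0.655). Of 11 tested receptors and cofactors, 6 were higher and 5 lower. Rxra, the main retinoid X receptor of liver, was at -0.22 ± 0.13 and the orphan receptor Nr2f2 at -0.23 ± 0.14 (limma adjusted p = 0.650 and 0.658). The lipid-sensing receptor Ppard was at -0.63 ± 0.48 (limma adjusted p = 0.710).

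Among 18 tested oxidoreductases of retinol and retinaldehyde, 5 were higher and 13 lower, with a median of -0.062 on the log2 scale. Over all genes 53.5% were higher. Adh4, an alcohol dehydrogenase that also oxidises retinol, read 9604.4 and 8726 in AB6F1, against 14087.2 and 13851.5 in B6AF1. Both AB6F1 arrays were below the B6AF1 arrays, and the log2 difference was -0.61 ± 0.11 (SE; limma adjusted p = 0.154). Rdh16f2, of the retinol dehydrogenase 16 family, was at -0.62 ± 0.17 (limma adjusted p = 0.350). Retsat, retinol saturase, was at -0.36 ± 0.19 and Rdh14, a retinal reductase, at 0.27 ± 0.14, with limma adjusted p of 0.601 and 0.580. Adh1, the abundant hepatic alcohol dehydrogenase, was at -0.065 ± 0.12 (limma adjusted p = 0.894).

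Of the 4 tested genes of retinaldehyde oxidation, all were lower and none was called, while 53.5% of all genes were higher. The aldehyde oxidases Aox1 and Aox3 were at -0.49 ± 0.20 and -0.19 ± 0.20 on the log2 scale (SE). The dehydrogenases Aldh8a1 and Aldh1a7 were at -0.20 ± 0.11 and -0.033 ± 0.11. Limma adjusted p for these 4 genes ran from 0.501 to 0.948. In the list of retinoic acid breakdown, Cyp2c39 was at 0.42 ± 0.18, Cyp2s1 at 0.45 ± 0.55 and the glucuronosyltransferase Ugt2b1 at -0.45 ± 0.15, with limma adjusted p from 0.408 to 0.822.

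Genes of uptake and ester turnover went both ways. Cd36, a scavenger receptor that takes up fatty acids and carotenoids, read 6899.8 and 8114.3 in AB6F1, against 4293.5 and 4820.7 in B6AF1. All of its 3 probe sets had AB6F1 above B6AF1, and the one that stands for it was at 0.72 ± 0.13 (log2, SE; limma adjusted p = 0.154). Scarb1, the lipoprotein receptor SR-BI, was at -0.41 ± 0.16 and the carotenoid-cleaving Bco2 at -0.12 ± 0.20 (limma adjusted p = 0.482 and 0.871). Fabp5, a fatty acid-binding protein that can carry retinoic acid, read 4046.5 and 1782.1 in AB6F1, against 1262.6 and 799.3 in B6AF1. It was at 1.42 ± 0.38 (limma adjusted p = 0.338), highest on AB6F1 replicate 1 as Tgm2 was.

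Stra6l, the liver receptor for retinol-binding protein, was at -0.18 ± 0.12 (limma adjusted p = 0.655). The endocytic receptors Lrp1 and Lrp2 were at -0.059 ± 0.21 and 0.54 ± 0.50, with limma adjusted p of 0.949 and 0.766. In the list of esterification and ester hydrolysis 7 of 8 tested genes were higher, against 53.5% of all genes, at a median of 0.082 (log2). None had an unadjusted p under 0.05, against 9.72% of all genes. Dgat1, an acyltransferase that can also esterify retinol, was at 0.23 ± 0.14, lipoprotein lipase (Lpl) at 0.41 ± 0.27, and the carboxylesterases Ces1g and Ces1f at 0.20 ± 0.11 and -0.13 ± 0.11 (limma adjusted p from 0.614 to 0.747).

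**Figure D4:**
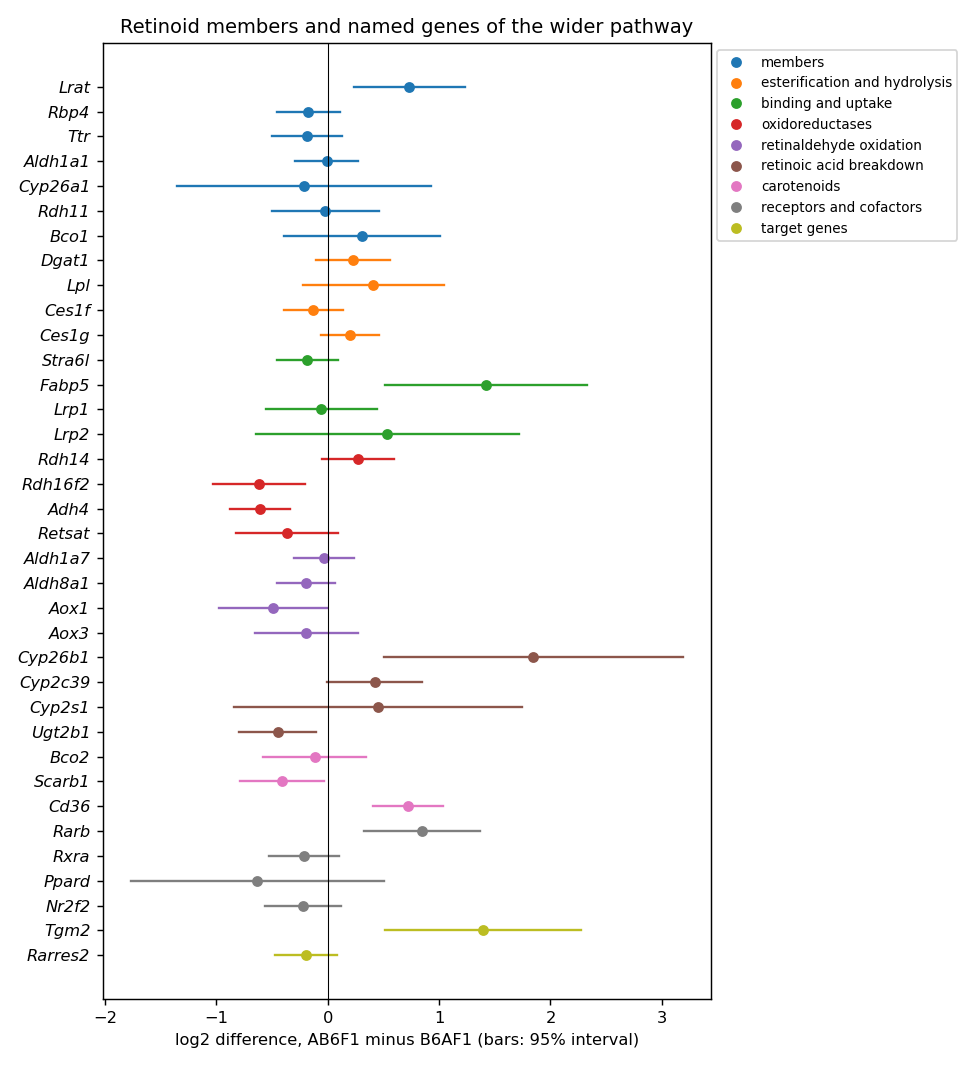
Log2 difference (AB6F1 minus B6AF1) with its 95% interval from limma, for the 7 tested members and the 4 or fewer genes with the lowest p in each list of the wider pathway, coloured by list. The intervals are for single genes, not adjusted for the number of genes tested, and that of Cyp26a1 is wide, while the intervals of Lrat, Rarb, Cd36, Fabp5, Tgm2 and Cyp26b1 lie to the right of 0 and those of Adh4, Rdh16f2, Aox1, Ugt2b1 and Scarb1 to the left.

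Markers of other liver cells were set beside these genes. The 10 tested macrophage markers lay above 0 without exception, against 53.5% of all genes, at a median of 0.72 on the log2 scale. Of these 10, 7 had an unadjusted p under 0.05, against 9.72% of all genes in either direction and 5.84% higher. None was called by limma. Lyz2, the lysozyme of macrophages, was at 1.28 ± 0.26, and the complement chains C1qb, C1qa and C1qc at 1.12 ± 0.27, 1.01 ± 0.28 and 0.77 ± 0.28 (limma adjusted p from 0.200 to 0.450). The summed signal of all 12 listed markers came to 17389 and 10947.4 in AB6F1, against 7278.5 and 10193.8 in B6AF1, and AB6F1 replicate 1 was highest, as for Tgm2 and Fabp5. Of 9 tested endothelial markers 6 were higher and 3 lower, from -0.21 to 1.18, with a median of 0.28. At an unadjusted p under 0.05 there were 2 (22.2%), each higher in AB6F1. The AB6F1 arrays were above the B6AF1 arrays in 3 (22.5% of all genes), and the other 6 overlapped. Lyve1 was at 1.18 ± 0.39, Cdh5 at 0.69 ± 0.23, Stab1 at 0.37 ± 0.29 and Kdr at 0.28 ± 0.23, with limma adjusted p from 0.410 to 0.731. Of 8 listed adipocyte and kidney markers 5 had a probe set, and all 5 were below the filter. The part of these cells in the differences above was not tested.

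Median signals ran from 75.9 to 78 on the AB6F1 arrays, against 67.2 to 72.8 on the B6AF1 arrays. Correlations of log2 signal across genes, which are not independent replicates, ran from 0.961 to 0.975 over the 6 pairs. Centring each array on its median moved the median difference of all genes to -0.11 on the log2 scale, against 0.024 as deposited. Under it Lrat was at 0.59, Rbp4 at -0.31 and Ttr at -0.32, and no member was called. Under quantile normalization Rbp4 was at -0.089 and Ttr at -0.085, also without a call.

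**Figure D5:**
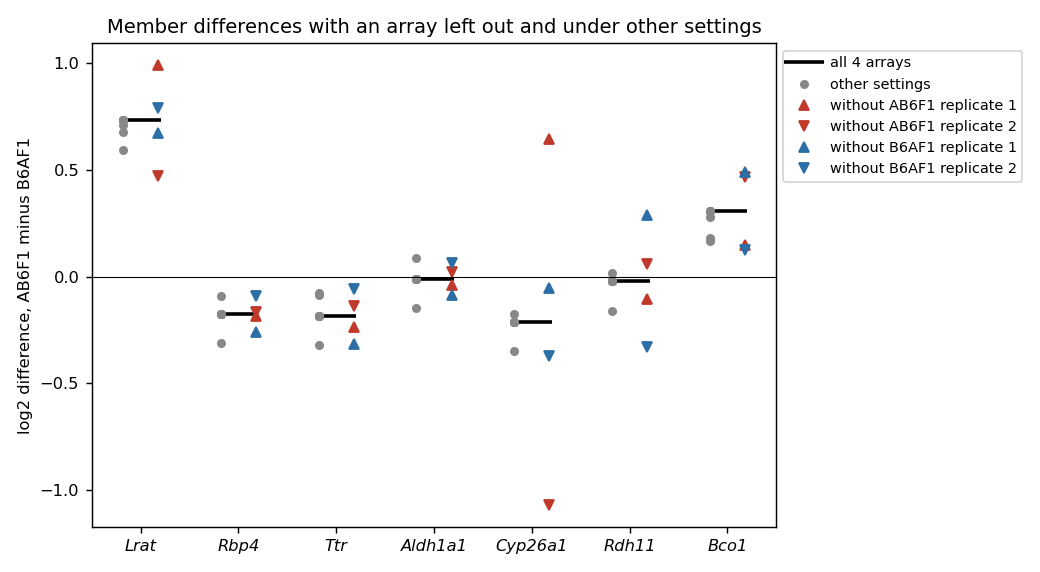
Log2 difference (AB6F1 minus B6AF1) of the 7 tested members with all 4 arrays (black bars), with 1 array left out (triangles, red for an AB6F1 and blue for a B6AF1 array) and under the other settings (grey points). Lrat stays above 0 under every setting run, between 0.47 and 0.99, and Cyp26a1 runs from -1.07 to 0.64.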

How the data were processed

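The deposited intensity of each probe set was made with MAS5 and is on a linear scale; the tool is from the submitters' processing notes and the sources used here give no version of it. The authors' scaling, read from the values, gave each array a mean of 500 once 2% of probe sets were trimmed at either end. A change shared by all transcripts is therefore not visible. Biotin-labelled cRNA was made from 6 µg of total RNA, per the labels. Detection calls were not used here.

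The members and gene lists were chosen with earlier results of these data known. Symbols were updated through gene identifiers (RefSeq, GRCm38.p6); 34945 probe sets had 1 symbol, 932 several and 9160 none, and the last 2 kinds were left unnamed. Log2 signals, with no pseudocount, were compared with limma 3.58.1 in R 4.3.3 (lmFit, eBayes with intensity trend, two-sided), as tested on simulated data. The prior added 4.96 degrees of freedom to 2. Intervals are for 95% and single genes; the number of arrays limits precision. The labels call the mice biological replicates. Genes named outside the members are those past the test or the up to 4 of smallest p in each list, and Alb. Lum, Col1a1, Cygb, Reln, Des, Gfap, Hand2, Acta2, Pdgfrb, Dhrs3 and Adh1 are additions to this rule, made with their values known. Of the 90 further gene symbols, 15 had no probe set of a single symbol and were not analysed here under that symbol. They include Rbpr2, another name of Stra6l, which was tested. Replicate numbers are shared by the crosses, but differences between replicates 1 and 2 did not move together over genes (correlation -0.027), so no pairing was assumed.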

Additional observations from a re-analysis of the deposited data

How the results depend on the processing

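Lrat, Rbp4, Ttr and Bco1 kept their sign under all settings run, 14 for each and 13 for Bco1, which the filter at the 75th percentile removed. No member was called except Cyp26a1 without AB6F1 replicate 2. The number of members called ran from 0 to 1, of members higher from 3 to 4 (2 with all arrays), and their median difference from -0.057 to 0.020 (log2), with 1 array left out. Quantile normalization turned Aldh1a1 to 0.086 and Rdh11 to 0.018. With 1 array left out Aldh1a1 ran from -0.087 to 0.066, turning without AB6F1 replicate 2 (0.020) or B6AF1 replicate 2. Rdh11 ran from -0.33 to 0.29, turning without AB6F1 replicate 2 (0.059) or B6AF1 replicate 1. Cyp26a1 ran from -1.07 to 0.64, turning without AB6F1 replicate 1. Quantile normalization gave 4 members higher, and the filter at the 75th percentile, which removes Bco1, gave 1. The members' median was -0.16 with median centring, -0.10 without the filter, which adds Aldh1a2, and -0.10 under that stricter filter.

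Over all genes 25 were called, 50 with median centring (28 higher and 22 lower in place of 16 and 9), 0 by eBayes without the trend, and 1 to 241 with 1 array left out. With the replicate number as a block, 62 genes were called, among them 1 of the wider pathway, Fabp5, and no member; the block changed no other call of a member or pathway gene. Leaving out 1 array gave 0 to 3 called pathway genes: Cd36 without AB6F1 replicate 1, and Tgm2, Fabp5 and Aox1 without AB6F1 replicate 2. With a cross reduced to 1 mouse, that mouse is assumed to vary like the others. The cause of these changes was not tested. Dim probe sets such as Aldh1a2 have no usable fold here.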
